A study of Mus musculus with 18 samples.

Results

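A set of 10 genes of the Wnt pathway was followed through mouse embryoid bodies made from conditional knockouts of Mettl14 or Mettl3, which encode the 2 core proteins of the RNA m6A writer complex, with and without an inhibitor of an enzyme that adds or removes H3K27 methylation. The set held a ligand (Wnt5a), 4 secreted antagonists (Sfrp1, Sfrp2, Dkk1 and Dkk3), 3 feedback regulators (Axin2, Nkd2 and Rnf43), a nuclear factor (Tcf7) and a target gene (Ccnd1). In Mettl3 knockout bodies treated with the demethylase inhibitor GSK-J4, Nkd2, Sfrp2, Tcf7, Dkk1 and Rnf43 had no read in any library, and Wnt5a, Dkk3 and Ccnd1 fell. No member passed the edgeR test over all genes after loss of Mettl14 or Mettl3 alone, or in Mettl14 knockout bodies treated with the methyltransferase inhibitor GSK343, where Dkk1 had the lowest values of its line. The 10 were taken by gene symbol, matched through Ensembl identifiers, from the 54446 genes of each count file. They were picked with results of these same libraries known. Their changes and adjusted p-values, although computed across all genes, are therefore a description and lend no support to a statement about the set.

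The study asked how an inhibitor of the H3K27me3 methyltransferase acts on the expression changes that follow loss of Mettl14. It holds 18 poly(A) RNA libraries of C57BL/6 embryoid bodies, in 6 groups of 3. The Mettl14 line gave conditional knockout (CKO) bodies treated with 5 µM GSK343, a small-molecule inhibitor of the methyltransferase EZH2, CKO bodies without it, and control bodies. The Mettl3 line gave CKO bodies treated with 5 µM GSK-J4, a small-molecule inhibitor of the H3K27 demethylases KDM6A and KDM6B, CKO bodies without it, and control bodies. The labels describe DMSO as the vehicle of the CKO cells; vehicle for the controls is not stated. All bodies formed over 7 days in serum medium on ultra-low attachment plates, without feeder cells. The stem cells had before that been kept with LIF, the MEK inhibitor PD0325901 and CHIR99021, which blocks GSK3 and so activates Wnt signalling.

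Several features limit these groups as a model. Each inhibitor was given to 1 line, so inhibitor and line cannot be told apart, and no inhibitor-treated control bodies were analysed here. How the knockout was induced, what the controls carry at the targeted alleles, and how many clones each line represents were not stated in the labels. Nothing states that the 3 libraries of a group came from separate cultures, so the p-values measure only the spread between these libraries. In bulk RNA, fewer cells of a type and less RNA per cell cannot be told apart.

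Canonical Wnt signalling works by keeping beta-catenin from being destroyed. A Wnt ligand binds Frizzled and LRP5 or LRP6 at the cell surface, the Axin–APC–GSK3 complex stops degrading beta-catenin, and beta-catenin enters the nucleus and acts with TCF/LEF factors, of which Tcf7 encodes one. The pathway is held in check by secreted proteins, SFRPs that bind the ligand and DKKs that bind LRP5 and LRP6, and by inhibitors that the signal itself turns on, Axin2, NKD proteins and the receptor-removing ubiquitin ligase RNF43. In embryoid bodies and embryos Wnt signals are known for their part in forming the primitive streak and mesoderm, and Wnt5a for polarity and outgrowth through beta-catenin-independent signalling.

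Total counts ran between 721853 and 32540164 a library, so that 3 counts, taken here as the detection floor, equalled between 0.0922 and 4.16 CPM (counts per 1000000 counts of the library). The third GSK343 library (721853 counts) and the third Mettl14 CKO library (1303697 counts) were the only ones under 2000000 counts. Counts over the whole gene do not test the deletion of part of it, and the targeted genes did not separate the groups. Mettl14 had 12.1, 17.1 and 12.5 CPM with GSK343 and 15.3, 22.9 and 17.6 CPM in Mettl14 CKO bodies, against 17.1, 18.1 and 16.8 CPM in their controls. Mettl3 had 8.54, 28.6 and 13.6 CPM with GSK-J4 and 25.9, 6.90 and 18.1 CPM in Mettl3 CKO bodies, against 20.3, 33.6 and 18.6 CPM in their controls.

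The GSK-J4 libraries stood apart from all others, and every GSK-J4 value below goes with the following measurements, whose part in the results was not tested. Mitochondrial protein-coding transcripts made up 0.174% ± 0.0666 of counts in GSK-J4 bodies and 2.38% ± 0.174 in Mettl3 CKO bodies (SD, n = 3 each). The 8 mesenchyme or fibroblast markers, all at 10 CPM or more on average in both groups, summed to between 10665 and 19407 CPM in GSK-J4 bodies and between 27894 and 32779 CPM in Mettl3 CKO bodies. Col1a1, a fibrillar collagen of mesenchyme that is among the 8, differed by a larger ratio than their sum, so it does not stand for the list. Col1a1 had 272, 114 and 144 CPM in GSK-J4 bodies, against 6390, 5953 and 6997 CPM in Mettl3 CKO bodies.

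Markers of other lineages summed to far less than those of mesenchyme in both of these groups, and their summed ranges were higher in GSK-J4 bodies for epithelium, endothelium, cardiac muscle and endoderm. The 4 epithelial markers, of which 3 averaged 10 CPM or more in GSK-J4 bodies and none did in CKO bodies, summed to between 15.3 and 150.5 CPM in GSK-J4 bodies and between 1.14 and 10.4 CPM in Mettl3 CKO bodies. The 4 endothelial markers summed to between 31.8 and 42.7 CPM with GSK-J4 and between 11.4 and 18.8 CPM in Mettl3 CKO bodies. The 4 cardiac markers summed to between 11.8 and 57.7 CPM with GSK-J4, with Actc1 at 0, and between 1.69 and 5.13 CPM in Mettl3 CKO bodies. The 5 endodermal markers reached 19.7 CPM with GSK-J4, with Ttr at 0, and 0.966 CPM in Mettl3 CKO bodies. The 5 neural markers went the other way, between 66.1 and 80.0 CPM with GSK-J4 and between 176 and 195 CPM in Mettl3 CKO bodies. Ranges overlapped for the pluripotent, blood and primitive streak lists, and the stem cell gene Pou5f1 and the streak genes T and Mixl1 were at 0 in all 3 GSK-J4 libraries.

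Per unit of gene length, 5 of the 10 genes carried most of the signal in the 5 groups without GSK-J4. In TPM (transcripts per 1000000, here over protein-coding genes), Ccnd1, Dkk3, Wnt5a, Sfrp2 and Nkd2 were the 5 highest members in each of those groups, between 36.7 TPM for Nkd2 in Mettl14 controls and 198 TPM for Dkk3 in Mettl3 CKO bodies. Axin2, Sfrp1, Tcf7, Dkk1 and Rnf43 lay below them in each, and Rnf43 was lowest in 4 of the 5. In Mettl14 CKO bodies the order was Ccnd1 (138 TPM), Sfrp2 (85.1), Wnt5a (77.6), Dkk3 (76.6) and Nkd2 (41.2), and in Mettl14 controls it was Ccnd1 (166 TPM), Sfrp2 (112), Wnt5a (89.6), Dkk3 (75.7) and Nkd2 (36.7). Nkd2 was separated from Dkk3 above it in both groups, while neighbours among the first 4 overlapped in their library ranges. In Mettl3 CKO bodies the order was Dkk3 (198 TPM), Ccnd1 (144), Sfrp2 (132), Wnt5a (100.0) and Nkd2 (88.4). In GSK-J4 bodies only Ccnd1 (53.4 TPM), Dkk3 (22.2), Wnt5a (17.1), Axin2 (4.71) and Sfrp1 (1.91) had any reads.

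**Figure D1:**
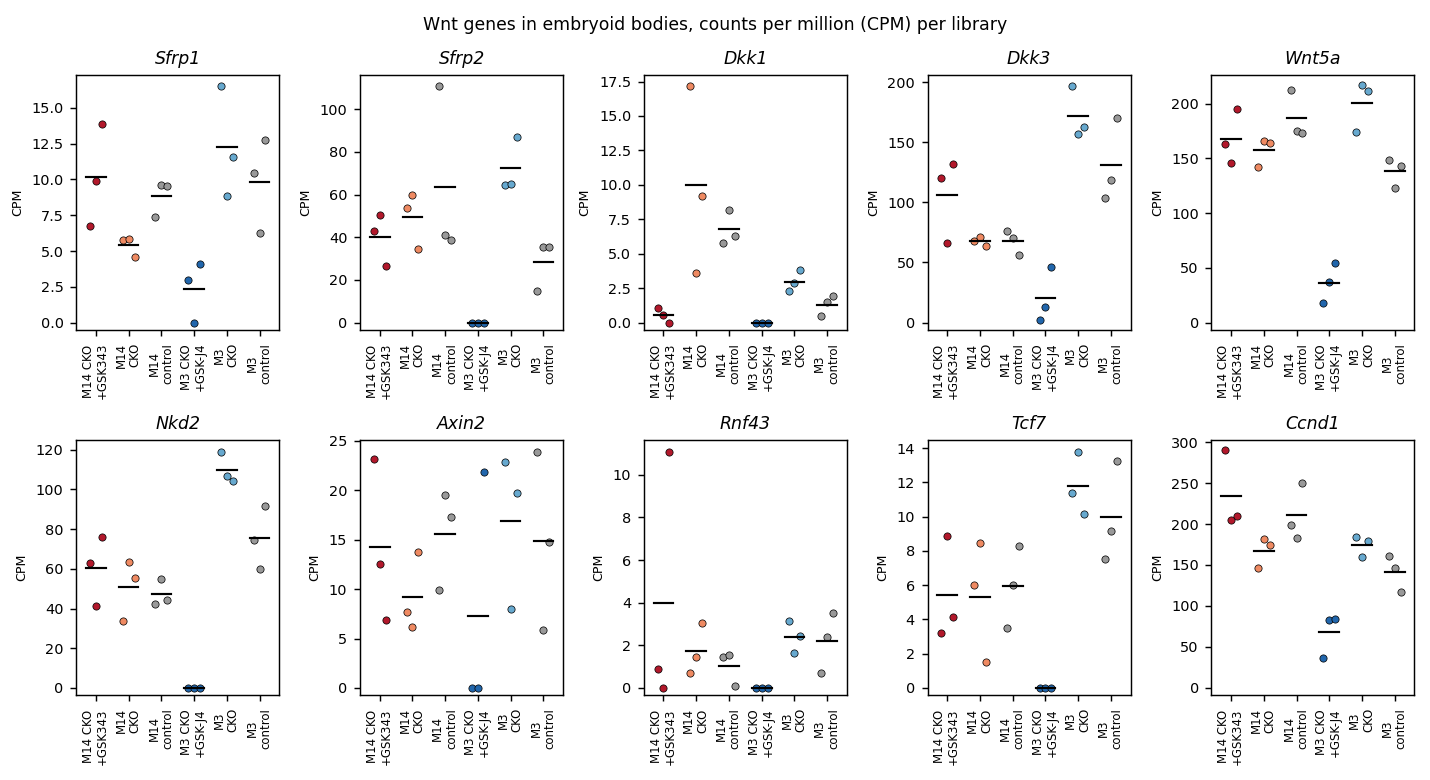
Level of each of the 10 genes in CPM (vertical axes) in each of the 18 libraries (points), with group means as bars; within each line the inhibitor-treated CKO group stands left of the CKO group and the control group. Nkd2, Sfrp2, Dkk1, Tcf7 and Rnf43 have no reads in the 3 GSK-J4 libraries, and Wnt5a, Dkk3 and Ccnd1 sit below every other library there.

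Each line was fitted on its own over all genes with edgeR's quasi-likelihood test, and p-values were adjusted by Benjamini and Hochberg; a gene is called at an adjusted p under 0.05. All 10 genes passed the low-count filter in each fit. A change is the log2 ratio of the first group over the second with its standard error (SE). Non-overlap means that every library of one group lay on one side of every library of the other. It was read in CPM scaled by edgeR's TMM factors from each line's own fit. Comparisons of CKO with control bodies and of inhibitor-treated with untreated CKO bodies share the CKO libraries, so their values are given side by side only.

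For Mettl14 CKO against control bodies, none of the 10 genes was called, and the background was 0.0% of 13882 genes. At an unadjusted p under 0.05 the counts were 0 of the 10 and 208 of all genes, and DESeq2 called 0 of the 10 and 0 of all genes. The groups did not overlap for 1 of the 10, Sfrp1, which was lower in CKO bodies as were 4.2% of all genes. For GSK343-treated against untreated Mettl14 CKO bodies, edgeR called none of the 10, with a background of 0.0288%. At an unadjusted p under 0.05 were 1 of the 10 and 797 of all genes, and DESeq2 called 1 of the 10 and 56 of 13855 genes. The groups did not overlap for 3 of them, Sfrp1 and Ccnd1, higher with GSK343 as were 4.56% of all genes, and Dkk1, lower as were 5.44%. For GSK343-treated CKO against control bodies none of the 10 was called by edgeR, with a background of 0.166%; 2 of the 10 and 602 of all genes had an unadjusted p under 0.05, and DESeq2 called 1 of the 10 and 71 of 13855 genes. Here 1 of the 10 did not overlap, Dkk1, lower with GSK343 as were 6.71% of all genes.

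For Mettl3 CKO against control bodies edgeR called none of the 10, with a background of 0.0% of 16782 genes. At an unadjusted p under 0.05 the counts were 1 of the 10 and 315 of all genes, and DESeq2 called none of the 10 and 5 of 16359 genes. The spread in this fit was estimated with the GSK-J4 libraries included. With the CKO and control libraries fitted alone, edgeR called 2 of 15838 genes, and 1189 had an unadjusted p under 0.05. None of the 10 was called in any alternative. The groups did not overlap for 5, Wnt5a, Sfrp2, Dkk1, Nkd2 and Ccnd1, all higher in CKO bodies, as were 6.48% of all genes. On plain CPM the groups overlapped for Ccnd1. For GSK-J4-treated against untreated Mettl3 CKO bodies 8 were called, all lower, where the background was 9.07% of all genes lower and 13.0% in either direction. The groups did not overlap for 9 of the 10, against 22.3% of all genes lower. Against control bodies, GSK-J4-treated bodies had 6 of the 10 called, all lower, where the background was 8.25% lower and 11.4% in either direction, and 9 without overlap, against 23.1% of all genes lower. Since the genes were picked on these contrasts, nothing is read from these shares.

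**Figure D2:**
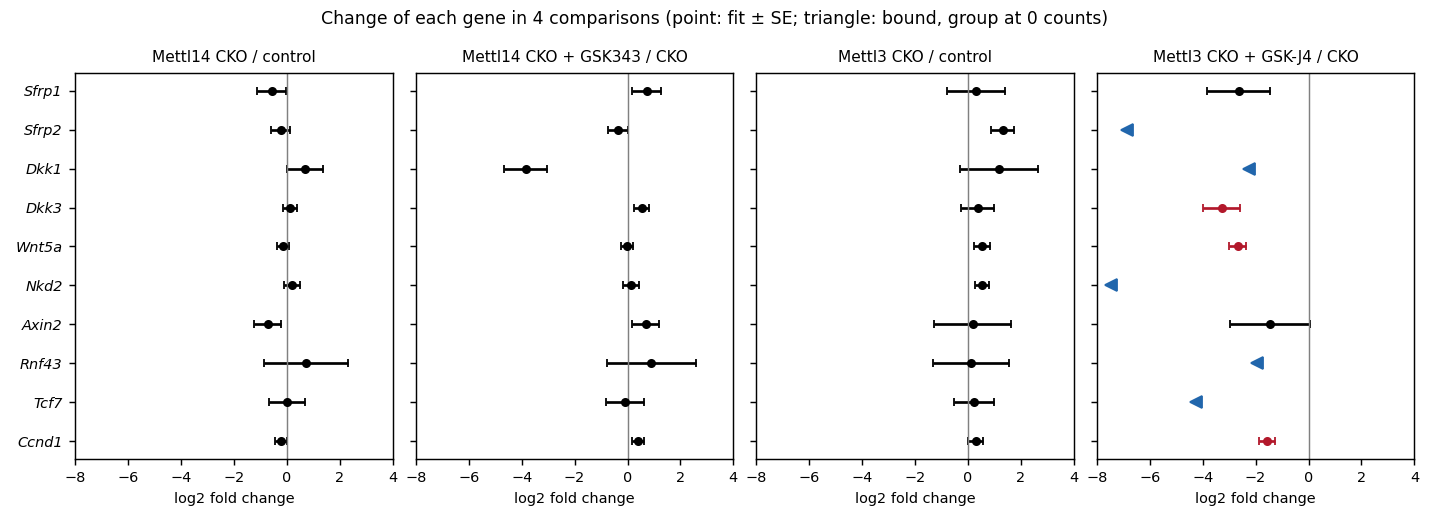
Log2 change of each of the 10 genes (horizontal axes; SE as bars) in 4 comparisons, for GSK343 and GSK-J4 against the untreated CKO bodies and for each CKO against its control; red points are genes called at an adjusted p under 0.05, black points are not called, and blue triangles are bounds for the 5 genes without reads in all 3 GSK-J4 libraries, each of them called. The called genes are all in the GSK-J4 panel, where all 10 values are negative.

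Wnt5a encodes a ligand that signals mainly without beta-catenin (ENSMUSG00000021994.15; chromosome 14, 28504750 to 28527448, plus strand, GRCm38). It had 18.3, 36.8 and 54.2 CPM in GSK-J4 bodies, against 174, 217 and 211 CPM in Mettl3 CKO bodies and 149, 123 and 143 CPM in Mettl3 controls. All 3 groups were separate, with GSK-J4 lowest and CKO highest. With GSK-J4 it fell, with a log2 change of -2.68 ± 0.33 (SE) against CKO bodies, with an edgeR adjusted p of 0.000455, and of -2.16 ± 0.33 against controls, with an adjusted p of 0.00165. The CKO-to-control change was 0.52 ± 0.31 (adjusted p 1.00).

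In the Mettl14 line Wnt5a had 163, 145 and 195 CPM in GSK343 bodies, against 142, 166 and 164 CPM in CKO bodies and 212, 175 and 173 CPM in controls. The GSK343 and CKO groups overlapped, and on plain CPM, although not on TMM-scaled CPM, each CKO library lay below each control. The changes were -0.01 ± 0.22 for GSK343, a sign that turned with DESeq2's size factors and with plain library sizes, and -0.14 ± 0.22 for CKO against control.

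Sfrp1 and Sfrp2 encode secreted proteins with a Frizzled-like domain that bind Wnt ligands. Sfrp1 (ENSMUSG00000031548.7; chromosome 8, 23411502 to 23449632, plus strand) was low throughout. In Mettl14-line bodies it had 6.76, 9.91 and 13.9 CPM with GSK343, against 5.75, 5.88 and 4.60 CPM in CKO bodies and 7.36, 9.63 and 9.53 CPM in controls. Each CKO library lay below each library of both other groups. The changes did not pass the test, at 0.72 ± 0.55 for GSK343 and -0.58 ± 0.53 for CKO against control (edgeR adjusted p 1.00 for the CKO change). In the Mettl3 line Sfrp1 had 2.94, 0 and 4.12 CPM with GSK-J4, against 16.5, 8.83 and 11.6 CPM in CKO bodies and 10.5, 6.24 and 12.8 CPM in controls. The GSK-J4 libraries were the lowest of the line, and the change of -2.65 ± 1.18 against CKO bodies did not pass (adjusted p 0.166). With all 18 libraries in 1 fit it did (adjusted p 0.0353).

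Sfrp2 (ENSMUSG00000027996.13; chromosome 3, 83766321 to 83774316, plus strand) had no read in any of the 3 GSK-J4 libraries, against 64.7, 65.2 and 87.1 CPM in Mettl3 CKO bodies and 15.0, 35.4 and 35.4 CPM in Mettl3 controls. With the floor of 3 counts in each GSK-J4 library, a mean of 0.621 CPM, the level was at least 116-fold lower than in CKO bodies (edgeR adjusted p 5.43e-05) and at least 46.0-fold lower than in controls (adjusted p 0.000108). Each CKO library was above each control, a change of 1.31 ± 0.43 with an unadjusted p of 0.0138 that did not pass adjustment (adjusted p 1.00). The lowest adjusted p of this change over the alternative fits was 0.0656, and none called it. In Mettl14-line bodies Sfrp2 had 43.0, 50.6 and 26.3 CPM with GSK343, against 53.6, 59.9 and 34.5 CPM in CKO bodies and 111, 41.0 and 38.9 CPM in controls. These groups overlapped, and the first control library alone was above 60 CPM; without it the CKO-to-control change, -0.24 ± 0.36 with all libraries, was 0.41.

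Sfrp2 and Nkd2, the members above 50 CPM in each Mettl3 CKO library and without reads under GSK-J4, are shown with the sequence before their start, because CG-rich stretches are where the Polycomb proteins that methylate H3K27 are known to gather in mouse stem cells. RefSeq sequence (GRCm38.p6) for the 250 bases before the annotated start is shown for these 2 genes, 5′ to 3′ on the strand of the gene, with each CG in capitals; Nkd2 is at chr13:73847632-73847881 on the minus strand and Sfrp2 at chr3:83766071-83766320 on the plus strand.
Nkd2: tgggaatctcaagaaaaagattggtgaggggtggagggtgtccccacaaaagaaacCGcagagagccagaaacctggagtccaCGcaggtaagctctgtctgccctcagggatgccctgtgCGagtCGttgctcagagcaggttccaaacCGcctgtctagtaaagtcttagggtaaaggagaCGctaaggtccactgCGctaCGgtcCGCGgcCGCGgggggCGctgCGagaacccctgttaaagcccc
Sfrp2: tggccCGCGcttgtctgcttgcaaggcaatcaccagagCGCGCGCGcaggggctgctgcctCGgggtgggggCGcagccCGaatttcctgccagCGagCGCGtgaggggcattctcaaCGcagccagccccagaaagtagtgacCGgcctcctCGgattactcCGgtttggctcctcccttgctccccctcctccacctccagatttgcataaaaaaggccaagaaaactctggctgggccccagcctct
The Nkd2 stretch holds 14 CG and the Sfrp2 stretch 16 CG, against a median of 6 over the 32851 RefSeq windows of that length; 29.4% and 25.4% of windows hold as many or more. Axin2, with reads in 1 GSK-J4 library, has 24 CG in its window, as many or more than which are found in 12.0% of windows, and Dkk1 has 6 CG. Tcf7 and Rnf43, without reads under GSK-J4, have windows at 2 annotated starts each, with 37 and 15 CG for Tcf7 and 8 and 2 CG for Rnf43. Both Rnf43 windows, the Tcf7 window with 15 CG and part of the Dkk1 window lie inside the GENCODE gene, not before it. Of the 10 genes, 6 matched an entry in the RefSeq table. These counts describe the letters only; no chromatin measurement was analysed here.

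Dkk1 encodes Dickkopf-1, which blocks LRP5 and LRP6 (ENSMUSG00000024868.8; chromosome 19, 30545863 to 30549665, minus strand). It was the member with the lowest unadjusted p-value under GSK343. Dkk1 in Mettl14-line bodies had 1.06, 0.531 and 0 CPM with GSK343, which is 22, 6 and 0 counts, against 17.1, 3.58 and 9.20 CPM in CKO bodies (149, 25 and 12 counts) and 5.79, 8.18 and 6.32 CPM in controls (48, 68 and 65 counts). The GSK343 libraries were the lowest 3 of the line, while CKO and control libraries overlapped. The floor of the third GSK343 library, 4.16 CPM, is above the lowest CKO library, so that its 0 does not separate it from that library.

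The GSK343 change of Dkk1 was -3.85 ± 0.82 against CKO bodies (unadjusted p 0.000148, edgeR adjusted p 0.128) and -3.16 ± 0.80 against controls (unadjusted p 0.000823, adjusted p 0.212). Neither passed the edgeR test over all genes. DESeq2 called both, with adjusted p 0.00214 and 0.0177, and the change against CKO bodies was also called by edgeR when low-count genes were kept (adjusted p 0.00650). Over the other alternatives the adjusted p of the change against CKO bodies ranged between 0.0822 and 1.00, the second with all 18 libraries in 1 fit. Without both libraries under 2000000 counts it was -3.76 ± 0.78 with an adjusted p of 0.112. The CKO-to-control change was 0.69 ± 0.68.

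Mettl3-line bodies held Dkk1 at 0 CPM in the 3 GSK-J4 libraries, against 2.30, 2.85 and 3.80 CPM in Mettl3 CKO bodies and 0.463, 1.49 and 1.95 CPM in Mettl3 controls. The CKO libraries lay above all others of the line. With GSK-J4 the mean level was at least 4.80-fold lower than in CKO bodies (edgeR adjusted p 0.0408). The mean of the controls gave a bound of 2.1-fold (adjusted p 0.0676), but their first library lay below the mean floor of 0.621 CPM. The first call held under 5 of 17 alternatives, and leaving out a library ended it in 8 of 9 cases, all but the first GSK-J4 library.

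The Dkk1 stretch is shown because it is the only window among the matched members that holds a core TCF/LEF motif, searched as CTTTGAA and CTTTGAT with their reverse complements TTCAAAG and ATCAAAG, and Dkk1 is a known target of the pathway that it blocks. The 30 bases around it are at chr19:30549595-30549624 on the minus strand (RefSeq, GRCm38.p6), with the motif in capitals.
Dkk1: tcctcccaaagCTTTGAAatcccatcccgg
The motif starts 117 bases before the RefSeq start, and the GENCODE start lies 169 bases upstream of the RefSeq start. Either motif is found in 7.48% of RefSeq windows, and CTTTGAA or its reverse complement in 4.46%. The match describes letters, not binding.

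Dkk3 encodes a divergent Dickkopf protein that does not bind LRP6 as Dickkopf-1 does (ENSMUSG00000030772.6; chromosome 7, 112116017 to 112159057, minus strand). It had 2.36, 12.8 and 46.4 CPM in GSK-J4 bodies, against 197, 157 and 162 CPM in Mettl3 CKO bodies and 103, 119 and 170.0 CPM in Mettl3 controls. The GSK-J4 libraries differed from each other by a larger ratio than the libraries of any other group did and still lay below all others. The change was -3.29 ± 0.69 against CKO bodies (edgeR adjusted p 0.0102) and -2.92 ± 0.68 against controls (adjusted p 0.0186). Fits on the compared groups alone ended both calls (adjusted p 0.0520 and 0.0739), as did leaving out the third control library for the second (adjusted p 0.0639).

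In the Mettl14 line Dkk3 had 120.3, 66.6 and 132 CPM with GSK343, against 67.7, 71.2 and 63.7 CPM in CKO bodies and 76.2, 70.3 and 56.0 CPM in controls. In 2 of the 3 GSK343 libraries it was above every other library of the line, and the second was within the range of the others. The change with GSK343 was 0.53 ± 0.27 against CKO bodies (unadjusted p 0.0638) and 0.64 ± 0.27 against controls (unadjusted p 0.0266, edgeR adjusted p 0.995).

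Axin2 encodes a scaffold of the beta-catenin destruction complex and is a widely used readout of canonical signalling (ENSMUSG00000000142.15; chromosome 11, 108920349 to 108950783, plus strand). With GSK-J4 it had 0, 0 and 21.9 CPM, against 22.9, 7.98 and 19.8 CPM in Mettl3 CKO bodies and 23.9, 5.87 and 14.8 CPM in Mettl3 controls. The third GSK-J4 library was within the range of the untreated bodies and the other 2 had no read. The change of -1.46 ± 1.51 did not pass (edgeR adjusted p 0.564), and without the third GSK-J4 library the gene was called (adjusted p 0.000985). Axin2 in Mettl14-line bodies had 23.2, 12.6 and 6.93 CPM with GSK343, against 7.71, 6.16 and 13.8 CPM in CKO bodies and 9.89, 19.5 and 17.3 CPM in controls. All 3 groups overlapped, with changes of 0.70 ± 0.51 for GSK343 and -0.73 ± 0.50 for CKO against control.

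Nkd2 encodes a Naked cuticle protein that binds Dishevelled and damps Wnt signalling (ENSMUSG00000021567.15; chromosome 13, 73818534 to 73847631, minus strand). It had no read in any GSK-J4 library, against 119, 107 and 104 CPM in Mettl3 CKO bodies and 74.4, 59.9 and 91.8 CPM in Mettl3 controls. The level was at least 177-fold lower than in CKO bodies (edgeR adjusted p 4.92e-06) and at least 121-fold lower than in controls (adjusted p 7.56e-06). Among 2199 protein-coding genes with 100 CPM or more on average in Mettl3 CKO bodies, Nkd2 was the 1 gene without a read in all 3 GSK-J4 libraries. That cut lies just under the Nkd2 mean of 110 CPM. At 50 CPM or more, 6 of 4314 had none (0.139%), Sfrp2 among them, and at 10 CPM or more, 113 of 9009 (1.25%).

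CKO libraries of the Mettl3 line were above the controls for Nkd2, a change of 0.53 ± 0.27 with an unadjusted p of 0.0782. Mettl14-line values for Nkd2 were 63.0, 41.3 and 76.2 CPM with GSK343, against 33.5, 63.3 and 55.2 CPM in CKO bodies and 42.3, 54.8 and 44.5 CPM in controls. These groups overlapped, with changes of 0.13 ± 0.31 for GSK343 and 0.19 ± 0.30 for CKO against control.

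Rnf43 encodes a membrane ubiquitin ligase that removes Frizzled receptors (ENSMUSG00000034177.15; chromosome 11, 87662722 to 87735539, plus strand) and was near the floor. It had no read with GSK-J4, against 3.13, 1.65 and 2.42 CPM in Mettl3 CKO bodies and 0.694, 2.37 and 3.52 CPM in Mettl3 controls. The mean level was at least 3.86-fold lower than in CKO bodies (edgeR adjusted p 0.0454) and at least 3.54-fold lower than in controls (adjusted p 0.0514). The first control library lay below the floor of the first GSK-J4 library, 0.8835 CPM. The first call held under 4 of 17 alternatives and was lost without any 1 of the 9 libraries. Across the Mettl14 line Rnf43 had 0.869, 0 and 11.1 CPM with GSK343, against 0.691, 1.43 and 3.07 CPM in CKO bodies and 1.45, 1.56 and 0.0972 CPM in controls. The 11.1 CPM belongs to the library with 721853 counts, and without libraries under 2000000 counts the GSK343 change, 0.90 ± 1.69, was -1.29.

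Tcf7 encodes TCF1, a DNA-binding partner of beta-catenin (ENSMUSG00000000782.15; chromosome 11, 52252371 to 52283014, minus strand). It had no read in any GSK-J4 library, against 11.4, 13.8 and 10.1 CPM in Mettl3 CKO bodies and 7.54, 9.15 and 13.3 CPM in Mettl3 controls, which overlapped each other. The level with GSK-J4 was at least 18.9-fold lower than in CKO bodies (edgeR adjusted p 0.00164) and at least 16.1-fold lower than in controls (adjusted p 0.00198). Mettl14-line bodies held Tcf7 at 3.23, 8.85 and 4.16 CPM with GSK343, against 5.98, 8.45 and 1.53 CPM in CKO bodies and 3.50, 6.02 and 8.26 CPM in controls. All 3 groups overlapped, with changes of -0.10 ± 0.71 for GSK343 and 0.02 ± 0.68 for CKO against control, the second of which turned sign with plain library sizes.

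Ccnd1 encodes cyclin D1, which drives entry into the cell cycle and is a known target of beta-catenin among many other inputs (ENSMUSG00000070348.5; chromosome 7, 144929931 to 144939925, minus strand). It had 36.8, 82.4 and 84.3 CPM with GSK-J4, against 184, 160.3 and 179 CPM in Mettl3 CKO bodies and 161, 146 and 117 CPM in Mettl3 controls. The GSK-J4 libraries lay below all others, with a change of -1.58 ± 0.30 against CKO bodies (edgeR adjusted p 0.00543) and -1.30 ± 0.29 against controls (adjusted p 0.0159). The second call was lost with limma's voom (adjusted p 0.0547), on the compared groups alone (0.0610) and without the second control library (0.0562).

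Under GSK343 the Ccnd1 change had the opposite sign. It had 290.0, 205 and 209 CPM with GSK343, against 147, 181 and 175 CPM in Mettl14 CKO bodies and 198, 183 and 251 CPM in Mettl14 controls. Each GSK343 library lay above each CKO library, and GSK343 libraries overlapped the controls. The change of 0.39 ± 0.23 against CKO bodies did not pass (adjusted p 0.922).

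**Figure D3:**
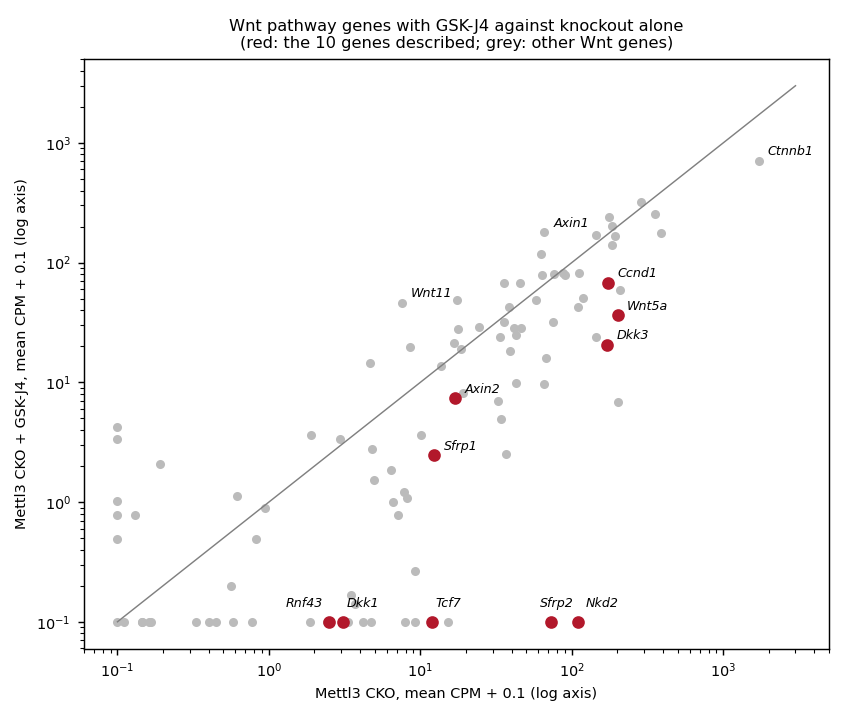
Mean level in GSK-J4-treated Mettl3 CKO bodies (vertical axis) against mean level in untreated Mettl3 CKO bodies (horizontal axis), in CPM plus 0.1 on log axes. Red points are the 10 genes and grey points the 91 other Wnt genes listed, of which 75 were tested in this line. Points along the lower edge have no reads with GSK-J4; Nkd2 is the one farthest to the right, and all red points lie below the line of equal level.

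Across the set, the Mettl3 CKO change was positive for 10 of 10 genes, with a median log2 change of 0.34, beside -0.01 over all genes tested; none passed the test, and the sign turned for Axin2 without the second control library (-0.20) or the first CKO library (-0.11) and for Rnf43 without the first control library (-0.32) or the first CKO library (-0.14). The Mettl14 CKO median was -0.06, beside 0.01 over all genes. GSK343 gave a median of 0.26, beside -0.03, and GSK-J4 a median of -2.66 with the 5 genes without reads at their bounds (fitted, -5.93), beside -0.06. The GSK-J4 direction was negative for all 10 genes under TMM, DESeq2's size factors and plain library sizes. Plain library sizes moved the median of all genes to 0.19 and the split of calls to 1181 higher and 1231 lower, against 664 higher and 1522 lower with TMM.

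The difference between the 2 inhibitor effects was tested in 1 fit of all 18 libraries. The GSK343 change minus the GSK-J4 change was called for 6 of the 10 genes, all positive, where the background was 8.3% of genes positive and 10.2% in either direction. It was 2.70 for Wnt5a (edgeR adjusted p 5.87e-05), 3.85 for Dkk3 (adjusted p 0.00138) and 2.01 for Ccnd1 (adjusted p 0.000947). Nkd2, Sfrp2 and Tcf7 were also called. Line and inhibitor cannot be told apart here. The difference between the 2 CKO effects was called for none of the 10 genes, with a background of 0.0%, 366 genes and 1 of the 10 at an unadjusted p under 0.05, and 0 of the 10 called by DESeq2; it was negative for 9 of them, and was -1.58 for Sfrp2.

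Control bodies of the 2 lines were also compared, and edgeR called 149 of 16326 genes. Between Mettl14 and Mettl3 control bodies none of the 10 genes was called by edgeR or DESeq2, with a background of 0.913% in edgeR. At an unadjusted p under 0.05 were 3 of the 10. On TMM-scaled CPM the groups did not overlap for 5, of which 3 were higher and 2 lower in the Mettl14 line. The shares of all genes were 6.04% higher and 16.3% lower. The factors came from each line's own fit, so the 2 lines are not on 1 scale and nothing is read from these shares. With factors from all 18 libraries, edgeR called 124 genes higher and 25 lower. The same 5 members did not overlap on plain CPM, in the same directions. Sfrp2 had the lowest unadjusted p (1.2 ± 0.42, p 0.0106, edgeR adjusted p 0.449), with the Mettl14 controls higher without overlap on plain CPM. Its overlap on TMM-scaled CPM rests on those separate factors and is not read. Dkk1 was higher in the Mettl14 controls (2.42 ± 0.99, unadjusted p 0.0239, adjusted p 0.664), as were Ccnd1 (0.63 ± 0.26, adjusted p 0.652) and Wnt5a (0.49 ± 0.26), on values alone. Dkk3 (-0.90 ± 0.50) and Nkd2 (-0.61 ± 0.30) were lower in them. With limma's voom, 3 of the 10 and 859 of 16326 genes were called, the 3 being Dkk1 (adjusted p 0.0123), Dkk3 (0.00941) and Ccnd1 (0.0283).

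Beyond these genes, 91 other Wnt pathway genes were listed by role, of which 72 could be tested in the Mettl14 line and 75 in the Mettl3 line. The fit of all 18 libraries also tested 75, not all of them the same genes. None of the 72 was called by edgeR in a Mettl14-line comparison; those at an unadjusted p under 0.05 numbered 3 for CKO against control, 8 for GSK343 against CKO and 7 for GSK343 against control, beside 208, 797 and 602 of all 13882 genes, and DESeq2 called 0, 1 and 0. For CKO against control, 26 changes were positive and 46 negative, with a median of -0.13 beside 0.01 over all genes. Celsr2, a planar polarity cadherin, changed by 2.90 ± 1.06, Dkk2 by 1.28 ± 0.56 and the R-spondin receptor Lgr4 by -0.76 ± 0.31, none past adjustment.

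Under GSK343, Dkk2 had the lowest unadjusted p of the 72 other genes. Dkk2, another Dickkopf that binds LRP6, had 1.54, 6.11 and 0 CPM with GSK343, against 22.3, 23.8 and 13.0 CPM in Mettl14 CKO bodies and 9.17, 7.10 and 10.2 CPM in Mettl14 controls. All 3 groups were separate, with GSK343 lowest and CKO highest. The GSK343 change of -2.72 ± 0.62 had an edgeR adjusted p of 0.185 and was called by DESeq2 (0.00772) and without the low-count filter (0.00420).

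Other genes of the list with an unadjusted p under 0.05 in a GSK343 comparison included Wif1, Wnt4, Lgr6, Nkd1 and Ror2, none past adjustment. Wif1, a secreted ligand-binding inhibitor, had 1.5, 0.797 and 0 CPM with GSK343, against 1.27, 4.16 and 6.90 CPM in Mettl14 CKO bodies and 7.12, 5.18 and 8.17 CPM in Mettl14 controls. Its change against controls was -2.72 ± 0.89 (unadjusted p 0.00647) and did not pass adjustment. The ligand gene Wnt4 changed by -2.68 ± 1.08 with GSK343 against CKO bodies and by -2.91 ± 1.08 against controls, neither past adjustment. Lgr6, an R-spondin receptor at 112, 87.5 and 77.6 CPM with GSK343, against 119, 122 and 156 CPM in Mettl14 CKO bodies, changed by -0.60 ± 0.24 (edgeR adjusted p 0.738). Nkd1, a feedback regulator related to Nkd2, changed by -1.70 ± 0.65 with GSK343 against controls, without overlap between the groups, and the receptor gene Ror2 by 0.72 ± 0.32 against CKO bodies, also without overlap.

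**Figure D4:**
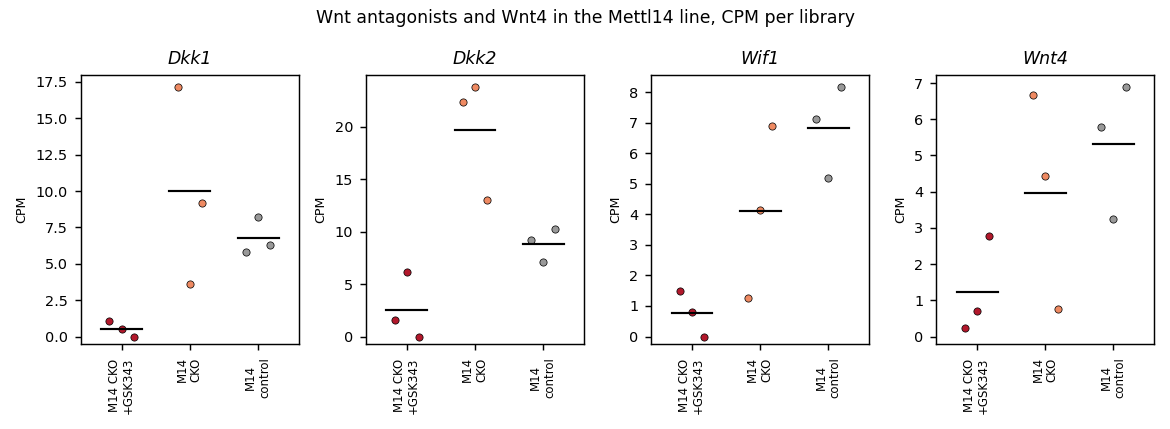
Level in CPM (vertical axes) of Dkk1, Dkk2, Wif1 and Wnt4 in the 9 Mettl14-line libraries (points; bars are group means), with GSK343-treated CKO bodies left of untreated CKO bodies and controls. For Dkk1 and Dkk2 the 3 GSK343 libraries are the lowest of the line; for Wif1 and Wnt4 they overlap the CKO libraries.

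With GSK-J4, 19 of the 75 other genes were called against Mettl3 CKO bodies, 2 higher and 17 lower, where 13.0% of all genes were called and 9.07% called lower, and 59 of the 75 had a negative sign. Their median was -1.03 with the 9 genes without reads at their bounds, beside -0.06 over all genes. All 19 kept their sign in every alternative, and 7 were called in each of them: Ctnnb1, Lgr6, Lrp5, Prickle1, Rspo1, Vangl2 and Wls. Against Mettl3 controls 18 were called, 2 higher and 16 lower, where 11.4% of all genes were called and 8.25% called lower. The difference between the 2 inhibitor effects was called for 20 of the 75 tested in the fit of all 18 libraries, 18 positive and 2 negative. Of all genes, 10.2% were called and 8.3% called positive.

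By role, the lower genes included ligand-side, receptor and signal-transducing components. Ctnnb1, which encodes beta-catenin itself, had 825, 689 and 622 CPM with GSK-J4, against 1518, 1869 and 1751 CPM in Mettl3 CKO bodies, and fell by 1.49 ± 0.16 on the log2 scale. Lrp5, a co-receptor, changed by -1.46 ± 0.26, Lgr6 by -5.11 ± 0.78, and Wls, which carries Wnt ligands to the cell surface, by -1.37 ± 0.26. Rspo1, a secreted enhancer of Wnt signals, and the planar polarity gene Vangl2 had no read with GSK-J4 and were at least 14.6-fold and at least 24.5-fold lower than in CKO bodies; Prickle1, of the same polarity group, changed by -2.99 ± 0.54. Among antagonists and feedback genes outside the 10, Apcdd1, a membrane inhibitor, was called, at least 12.6-fold lower, and that call was lost on the compared groups alone (edgeR adjusted p 0.0590).

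The remaining calls against CKO bodies were lost in at least 1 alternative each. Among them, 2 genes rose. Axin1, the constitutive scaffold related to Axin2, had 203, 184 and 152 CPM with GSK-J4, against 70.5, 56.0 and 70.7 CPM in Mettl3 CKO bodies (1.22 ± 0.23, edgeR adjusted p 0.00608, and 0.0633 without the second CKO library). Wnt11, a ligand of the beta-catenin-independent kind, had 38.3, 18.3 and 82.3 CPM with GSK-J4, against 9.28, 9.35 and 3.73 CPM in Mettl3 CKO bodies (2.40 ± 0.64, adjusted p 0.0321), and was called in 8 of 17 alternatives. For both genes the GSK-J4 libraries lay above all CKO libraries. The other 9 genes were lower: the ligand genes Wnt4 (-6.17 ± 1.28), Wnt10b (at least 7.42-fold) and Wnt16 (at least 5.23-fold), the R-spondin gene Rspo2 (at least 3.74-fold), the receptor genes Fzd1 (-2.79 ± 0.64), Lgr4 (-2.34 ± 0.60) and Ror2 (-2.36 ± 0.59), and the target genes Ccn4 (-2.04 ± 0.44) and Ccn5 (-4.03 ± 1.21). Of the 17 alternatives, 6 called Rspo2, 7 each called Wnt16 and Ccn5, 12 each called Wnt10b, Lgr4 and Ror2, 15 called Wnt4, and 16 each called Fzd1 and Ccn4.

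In Mettl3 CKO against control bodies none of the 75 was called by edgeR; 2 had an unadjusted p under 0.05, DESeq2 called 0, and 47 changes were positive. Gsk3b, a kinase of the destruction complex, changed by 0.58 ± 0.24, without passing adjustment. Sost, a secreted LRP inhibitor, had 0.492, 0.570 and 0.966 CPM in CKO bodies and no read in the 3 control libraries. Between the line controls 1 of the 75 tested in the fit of all 18 libraries was called, Rspo3, an R-spondin. Rspo3 had 97.6, 105 and 187 CPM in Mettl14 controls, against 32.0, 40.2 and 40.2 CPM in Mettl3 controls (1.85 ± 0.36, edgeR adjusted p 0.00790). That call was lost without the third Mettl14 control library (adjusted p 0.0783) and without the first Mettl3 control library (0.0772).

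For the 6 genes at 10 CPM or more, the genes with the most similar profile were found over the 15 libraries without GSK-J4, as Pearson's r of log2 CPM after removing each line's mean, among 8903 genes. The nearest were Bcar1 for Axin2 (r = 0.934), Fbln2 for Nkd2 (0.903), Cdon for Wnt5a (0.875), Pcmtd1 for Sfrp2 (0.871), Ipmk for Dkk3 (0.858) and Pygb for Ccnd1 (0.818). The next nearest were Tmem248 and Rexo1 for Axin2, Tbc1d2 and Chtf8 for Nkd2, Armcx4 and Igfbp5 for Wnt5a, Cadm2 and Fut9 for Sfrp2, Adipor2 and Tfdp2 for Dkk3, and Hs1bp3 and Dpp9 for Ccnd1. These libraries share group and depth differences, and the values are given as a description. With the GSK-J4 libraries included, none of the 3 nearest genes of any of the 6 was the same; the nearest of Nkd2 was then Pcdhgc5 (0.994) and that of Wnt5a was P3h1 (0.980).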

How the data were processed

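The deposited files hold whole-number read counts per gene for 18 libraries; per the labels, poly(A) RNA was purified with Dynabeads and sequenced as SMARTer Stranded Total RNA-Seq v2 libraries. Per the submitters' processing notes, the tools were CASAVA, Trimmomatic 0.38, HISAT2 2.1.0 and HTSeq, with build mm10; the strand setting and annotation release were not stated, so reads of overlapping antisense genes cannot be told apart. Rows that name no gene were left out of totals and tests.

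Of 54446 identifiers, 54409 matched GENCODE M21 with the version dropped, and 37 did not. The 10 genes, the pathway list and the marker lists were chosen with earlier results of these data known. Genes named outside the 10 were those of the pathway list that were called or, where none was, had the lowest unadjusted p.

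Each line's 9 libraries were fitted together (edgeR 4.0.16, filterByExpr, TMM, quasi-likelihood F test, R 4.3.3), and all 18 for contrasts across lines, with Benjamini-Hochberg adjustment over all genes tested. CPM in the text used plain library totals unless called TMM-scaled; TPM used union exon lengths and protein-coding genes. Floors and the bounds set from them cover counting error only; the standard errors come from the fits and include the spread between libraries. Figures were drawn with matplotlib 3.10.9. Alternatives were DESeq2 1.42.0, its size factors in edgeR, plain library sizes, no low-count filter, a replicate block, limma 3.58.1 voom with quality weights, other sets of libraries in the fit, no libraries under 2000000 counts, and each library left out in turn. The fits were tested on simulated data. Promoter windows and motifs came from a RefSeq table of GRCm38.p6.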

Additional observations from a re-analysis of the deposited data

Results flagged for a closer look

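In 1 fit of all 18 libraries, the GSK343 change in Mettl14 CKO bodies was set against the GSK-J4 change in Mettl3 CKO bodies. The difference passed the edgeR test for 6 of the 10 genes after Benjamini-Hochberg adjustment, all positive. The background was 10.2% of all genes in either direction and 8.3% positive. The 10 were picked with results of these libraries known, so nothing is read from this count. The adjusted p was 3.53e-09 for Nkd2, 6.34e-07 for Sfrp2, 5.87e-05 for Wnt5a, 0.000329 for Tcf7, 0.000947 for Ccnd1 and 0.00138 for Dkk3. In each case the GSK-J4 libraries lay below the untreated CKO libraries of their line, 3 of 3 libraries, and Nkd2, Sfrp2 and Tcf7 had no read in any of them. With GSK343, Nkd2, Sfrp2, Wnt5a, Tcf7 and Dkk3 overlapped the untreated CKO bodies, and Ccnd1 was higher in 3 of 3 libraries. With limma's voom the difference was no longer called for Tcf7 (adjusted p 0.0610) and Sfrp2 (0.0540). The inhibitors act on opposite enzymes, were given to different lines and had no treated controls, so inhibitor and line cannot be told apart.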

How the results depend on the processing

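None of the log2 changes of the 10 genes in the 9 comparisons that was called turned sign under any alternative run. Of 1799 recomputed changes, 1740 moved by less than the spread allowed and 59 by more. Some changes that were not called did turn sign with a library left out. Sfrp2 then ran between -0.494 and 0.405 for Mettl14 CKO against control bodies. Rnf43 ran between -1.93 and 1.67 for GSK343 against Mettl14 CKO bodies. For the Mettl14 CKO and Mettl3 CKO against their controls, and for the difference between these effects, 0 of the 10 genes were called in all alternatives. For GSK343 against Mettl14 CKO bodies the count was 0 with edgeR, 1 with DESeq2 and 1 with no low-count filter (Dkk1 both times), and between 0 and 0 with a library left out; against controls it was 0, and 1 with DESeq2, again Dkk1. For GSK-J4 against Mettl3 CKO bodies the count was 8, and between 6 and 7 with a library left out. Over the other alternatives it was between 5, with only the 2 groups compared, and 9. Against controls it was 6, between 5 and 7 with a library left out, and between 4 and 8 over the other alternatives. For the line controls it was 0, and 3 with limma's voom. For the difference of the inhibitor effects it was 6, between 6 and 8 with a library left out, and between 4 and 8 over the other alternatives.

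Same-numbered libraries of different groups did not deviate together (r between -0.302 and 0.262, over 0.1 in 4 of 18 pairs), so the numbers were not taken to pair them. With the replicate block, edgeR called 1407 genes for GSK-J4 against Mettl3 CKO bodies (6 of the 10), against 2186 without it (8 of the 10), 1 against 4 for GSK343, and 18 against 23 for GSK343-treated CKO against control bodies.

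Counts over all genes moved further. They ranged between 977 and 3717 for GSK-J4 against CKO bodies, between 0 and 56 for GSK343 against CKO bodies and between 2 and 71 for GSK343-treated CKO against control bodies, over the settings that keep all libraries or drop those under 2000000 counts. Plain library sizes gave 994 higher and 1088 lower for GSK-J4 against controls (531 and 1385 with TMM), and 1141 positive and 465 negative for the difference of inhibitor effects (1355 and 313 with TMM). Depth limits Dkk1, Rnf43, Sfrp1, Axin2 and Tcf7 most: in the third GSK343 library 3 counts are 4.16 CPM, more than the Dkk1 level of 3.58 CPM in the second Mettl14 CKO library. The cause of these shifts was not tested.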
